A study of Mus musculus with 8 samples.

Results

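Interferon-stimulated effector genes are the genes through which a cell carries out an interferon response. They were chosen by symbol, as 55 named genes, and 41 of them had a row among the 12589 genes of the processed table of mouse spleen stromal cells. The cells were of the line mSSC-YFP, a spleen-derived stromal line that carries a yellow fluorescent protein, so that every sample comes from 1 line in culture. The labels describe 4 samples treated with the vehicle DMSO and 4 treated with BMS493, an inhibitor of retinoic acid receptor signaling dissolved in DMSO, for 48 h. Both groups were grown in DMEM with fetal bovine serum and antibiotics, with no leukemic cells and no added interferon named in the labels, and nothing says whether the 4 samples of a group were separate cultures. The level analysed here is the deposited mean of log2 normalized expression over all samples, in which DMSO and BMS493 are pooled. The values of single samples were not analysed here, so no spread between samples, no depth per library and no difference between BMS493 and DMSO can be given, and every statement below is a description without a test.

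Interferons are secreted signaling proteins of the immune defence. Type I interferons are released by cells that sense viral nucleic acid and bind the receptor of Ifnar1 and Ifnar2, whose kinases Jak1 and Tyk2 start a signal that ends in a factor holding Stat2 and Irf9, which binds the interferon-stimulated response element of target promoters. Type II interferon, released mainly by activated T cells and natural killer cells, acts through Ifngr1 and Ifngr2, and its targets carry the gamma-activated site. The target genes encode proteins that bind foreign RNA, cut RNA, block the entry of viruses, mark proteins with ubiquitin-like tags or attack the membranes around intracellular pathogens. Stromal cells of lymphoid organs are non-hematopoietic cells, and many such cells hold these genes at a low resting level until interferon reaches them.

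The promoter sequences are shown first because the response element is the feature by which these genes are known. The motif searched was GAAA, any 2 bases, GAAA on either strand, in a window from 250 bases before to 50 after each RefSeq gene start of GRCm38.p6. Of the 55 genes, 43 had a window in the RefSeq table used here, and 21 of these (48.8%) held the motif, against 3.99% of all 27025 genes with a window and 3.54% of the 8845 genes that also had a row. The stretches below are the last 130 bases before the start, 5′ to 3′ on the gene's own strand, with each match in capitals; matches that read TTTC lie on the opposite strand. They show the Ifit family, the GTPase genes at the highest and the lowest level, a pair of Ifitm genes that differ in level, and Isg15, which was added after the matches were seen because 3 of them overlap.
Ifit1 (chr19:34640759-34640888, forward strand): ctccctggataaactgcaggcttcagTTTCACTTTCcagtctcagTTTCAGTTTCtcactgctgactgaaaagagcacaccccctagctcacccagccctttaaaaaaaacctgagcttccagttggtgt
Ifit3 (chr19:34583399-34583528, forward strand): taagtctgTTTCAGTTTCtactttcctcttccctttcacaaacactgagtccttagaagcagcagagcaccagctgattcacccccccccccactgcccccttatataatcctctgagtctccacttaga
Ifit2 (chr19:34550564-34550693, forward strand): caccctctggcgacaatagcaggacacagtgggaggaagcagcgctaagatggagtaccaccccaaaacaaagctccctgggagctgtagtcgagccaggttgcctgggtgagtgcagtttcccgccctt
Isg15 (chr4:156200819-156200948, reverse strand): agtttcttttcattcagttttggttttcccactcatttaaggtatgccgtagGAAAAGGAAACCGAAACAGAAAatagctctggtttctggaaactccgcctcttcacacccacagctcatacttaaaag
Irgm1 (chr11:48871421-48871550, reverse strand): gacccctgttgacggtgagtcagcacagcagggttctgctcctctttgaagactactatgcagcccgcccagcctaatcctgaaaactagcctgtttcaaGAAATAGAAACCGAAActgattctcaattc
Gbp7 (chr3:142530206-142530335, forward strand): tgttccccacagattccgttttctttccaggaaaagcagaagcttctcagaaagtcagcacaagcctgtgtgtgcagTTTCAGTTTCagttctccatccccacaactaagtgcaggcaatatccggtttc
Ifitm2 (chr7:140955962-140956091, reverse strand): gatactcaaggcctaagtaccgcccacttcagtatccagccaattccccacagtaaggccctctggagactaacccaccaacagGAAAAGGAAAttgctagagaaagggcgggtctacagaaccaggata
Ifitm1 (chr7:140967946-140968075, forward strand): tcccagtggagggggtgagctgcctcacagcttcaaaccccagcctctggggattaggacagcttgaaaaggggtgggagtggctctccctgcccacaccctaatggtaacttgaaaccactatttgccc
In Ifit1 the matches began 104 and 85 bases before the start, and in Irgm1 30 and 24 bases before it. Ifit3 had a match that began 122 bases before the start, and a further one 156 bases before it that lies outside the printed stretch. Neither of the 2 windows of Ifit2 held the motif, of which the first is printed, and the window of Ifitm1 did not hold it either. The gene ranges given further below are from the GENCODE annotation. For Irgm1 and Ifitm1 they begin upstream of the RefSeq start used here, so that the printed stretch lies inside the range. The bases before the GENCODE start of these genes were not searched. Ifitm3 is not printed, although its level was close to that of Ifitm2. It held the motif only after the start, from base 3 and from base 20. A match is a description of letters and not evidence of binding, and its absence says only that these letters are not in the window.

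The members of the list had low levels in these stromal cells. Since reads per gene grow with transcript length, levels were compared between genes per kb, as the mean log2 level minus log2 of the length of the longest transcript in kb. The median of the 41 members was 2.08, below the median of 3.28 over the 12364 genes with a length, a difference of -1.20. In all, 12 of the 41 (29.3%) lay above the median gene. The lower quartile of all genes, up to 1.84, held 20 members, the upper quartile, from 4.57, held 4, and 17 lay in between. Without regard to length, 9 members (22.0%) had a mean log2 level under 1, compared with 6.80% of all listed genes. The range was wide, from -1.57 for Gbp7 to 7.57 for Ifitm3 on the per-kb log2 scale, which is 562-fold. The order of genes that lie close together is not firm, since no spread is known and the order also changes with the length used.

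**Figure D1:**
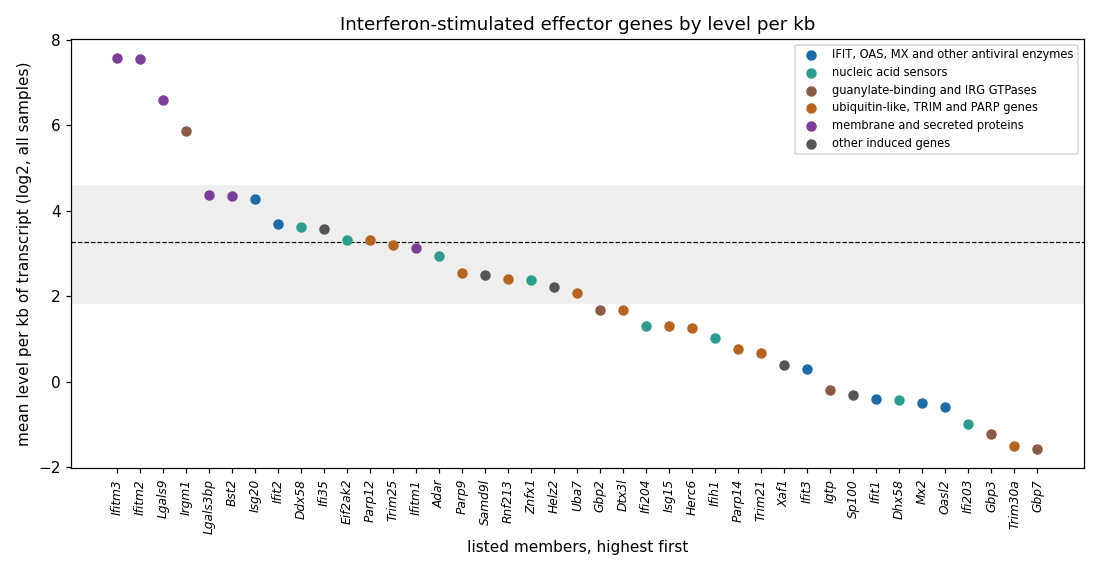
Mean level per kb of transcript (log2, all samples pooled) of the 41 listed members, ordered from the highest to the lowest and coloured by class. The grey band runs from 1.84 to 4.57, the quartiles of all genes with a length, and the dashed line is their median of 3.28. Ifitm3, Ifitm2, Lgals9 and Irgm1 stand above the band, and 20 members lie below it.

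Among the IFIT, OAS, MX and other antiviral enzymes, 6 of 12 genes had a row, and their median per-kb level was -0.06. The IFIT proteins bind foreign RNA and block its translation. Their genes lie side by side on chromosome 19 of GRCm38, with Ifit2 from 34550694 to 34576419, Ifit3 from 34583531 to 34588731 and Ifit1 from 34640871 to 34650009. Ifit2 had a mean log2 level of 5.62 and a per-kb level of 3.68, at percentile 58.0 of all genes. Ifit3 had a per-kb level of 0.30, at percentile 10.8, and Ifit1 one of -0.41, at percentile 6.22. Ifit2 thus lay 17.1-fold above Ifit1 and 10.5-fold above Ifit3, although the gap between Ifit2 and Ifit3 is 7111 bases. Part of Ifit3 cannot be told from its copy Ifit3b, and only 68.3% of its runs of 100 bases occur in no other gene. Divided by the length of this own sequence alone, the level of Ifit3 was 0.85, still 2.84 below that of Ifit2 on the log2 scale. For Ifit1 96.7% of the runs were its own.

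Isg20, a 3′ to 5′ exonuclease that degrades RNA, was the highest of the class with a per-kb level of 4.28, at percentile 70.1. With the union of exons as length, Isg20 had 3.50 and lay below Ifit2 with 3.64. Mx2, a dynamin-like GTPase, had -0.50, at percentile 5.66. Oasl2, a relative of the oligoadenylate synthetases that activate RNase L, had -0.58, at percentile 5.26. Oas1a, Oas2, Oasl1, Mx1, Rsad2 and Cmpk2 had no row and no level is given for them. The sequence of Oas1a is only 59.1% its own, the rest being shared mostly with its copy Oas1g. Rsad2, which encodes the antiviral enzyme viperin, and its neighbour Cmpk2, a nucleotide kinase, lie head to head on chromosome 12, with 12752 bases between their starts, and neither was listed.

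The nucleic acid sensors were spread around a median per-kb level of 1.84, with rows for 8 of 10 genes. Ddx58 encodes RIG-I, a helicase that senses viral RNA ends, and it was the highest with 3.63, at percentile 56.9. With the union of exons as length, Ddx58 had 2.77 and lay below Eif2ak2 with 3.07. Ifih1, which encodes the related sensor MDA5 for long double-stranded RNA, had 1.04, so that Ddx58 lay 6.04-fold above it. Dhx58, the third helicase of this family, which lacks the signaling domains, had -0.42, and Ddx58 lay 16.6-fold above it. The RNA-dependent kinase gene Eif2ak2 had 3.32 and the RNA-editing deaminase gene Adar 2.95, which places both near the median gene. Znfx1, a helicase that senses viral RNA, had 2.38. The DNA-binding genes of the Ifi200 family on chromosome 1 were lower, with 1.30 for Ifi204 and -0.997 for Ifi203, and these genes share sequence with other copies of the family. Zbp1 and Ddx60 had no row.

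The guanylate-binding and IRG GTPases assemble on the vacuoles of intracellular pathogens. Of 6 genes 5 had a row, with a median per-kb level of -0.20, and they spanned most of the range of the list. Irgm1, on chromosome 11 from 48861968 to 48871683, regulates the other IRG proteins. Its mean log2 level of 7.81 was the highest of all members, and its per-kb level was 5.87, at percentile 90.6. Igtp, another IRG gene on the same chromosome, had -0.20, at percentile 7.64, so that Irgm1 lay 67.1-fold above it. The Gbp genes lie in a row on chromosome 3. Gbp2 had a per-kb level of 1.69, Gbp3 -1.21 and Gbp7 -1.57, the lowest of all members. With the union of exons as length, the lowest of all members was Ifi203 with -1.83. Gbp2 was 7.46-fold above Gbp3, whose end lies 47392 bases from it. Of Gbp7 89.8% of the sequence was its own, and of Gbp3 99.1%. Iigp1 had no row. Each of the 5 listed genes had a promoter window with the response element, the highest and the lowest of them included. The second of the 2 windows of Gbp3 did not hold it. With the stricter GAAAC, any 1 base, GAAA, the window of Gbp2 held no match.

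For the ubiquitin-like, TRIM and PARP genes, 11 of 12 had a row, with a median per-kb level of 1.69. Isg15, the ubiquitin-like modifier itself, had a mean log2 level of 0.89 and, being short, a per-kb level of 1.30. Its activating enzyme Uba7 had 2.08 and its ligase Herc6 1.27. Trim25, a ubiquitin ligase that acts on RIG-I, had 3.20. Per kb, Trim25 lay 3.73-fold and Uba7 1.72-fold above Isg15, whereas Herc6 and Isg15 were at almost the same level. The order of Uba7, Herc6 and Isg15 changed with the length used. With the union of exons as length, Isg15 had 1.30, Uba7 1.19 and Herc6 0.30, and Trim25 stayed above them with 3.16. Without regard to length, Uba7 lay 8.24-fold and Herc6 6.17-fold above Isg15. Of Herc6 only 79.1% of the sequence was its own. Per kb of own sequence, Herc6 lay 0.31 above Isg15 on the log2 scale. Usp18, the protease that removes Isg15 from proteins, had no row. Of the other TRIM genes, the antibody receptor Trim21 had 0.67 and Trim30a -1.50, at percentile 1.75.

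The PARP genes encode ADP-ribosyltransferases. Parp12 was the highest of the class with 3.32, at percentile 50.6, and lay 5.85-fold above Parp14 with 0.77, at percentile 14.1. With the union of exons as length, Parp12 had 3.01 and lay below Trim25 with 3.16. Parp9 and Dtx3l encode partners of 1 complex, and their genes overlap head to head on chromosome 16 by 682 bases. Parp9 had a per-kb level of 2.54 and Dtx3l 1.69, a 1.81-fold difference, while their levels without regard to length were 4.37 and 4.09. The giant ubiquitin ligase gene Rnf213 had the highest mean log2 level of the class, 6.47, but its transcript of 16.7 kb brought it to 2.41 per kb.

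Membrane and secreted proteins formed the class with the highest levels. Of 7 genes 6 had a row, their median per-kb level was 5.49, and 5 of the 6 lay above the median gene. The Ifitm genes encode small membrane proteins that hinder the fusion of viruses with the cell, and they lie together on chromosome 7. Ifitm3 (141009586 to 141010770) had a per-kb level of 7.57 and Ifitm2 (140954837 to 140955987) one of 7.54, at percentiles 97.9 and 97.9. Ifitm1 (140967221 to 140969825), which lies between them, had 3.12, at percentile 46.8. Ifitm3 was thus 21.8-fold above Ifitm1. Only 65.1% of the sequence of Ifitm2 was its own, since it shares the rest with the overlapping gene model Gm45717, and divided by the length of its own sequence its level was 8.16, above that of Ifitm3. Lgals9, a secreted galectin, had 6.60, at percentile 94.9. Lgals3bp, a secreted glycoprotein that binds galectins, had 4.37. Bst2, or tetherin, which holds budding viruses at the cell surface, had 4.36, at percentile 71.6. Rtp4, a chaperone of membrane receptors, had no row.

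The other induced genes had rows for 5 of 8, with a median of 2.22. Ifi35 had a per-kb level of 3.58, the antiviral gene Samd9l 2.50 and the helicase gene Helz2 2.22. Xaf1, a promoter of apoptosis, had 0.39 and the nuclear body gene Sp100 -0.30. Ifi44, Ifi27 and Epsti1 had no row. Across the whole list, 14 genes had no row, 6 of them antiviral enzymes.

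The signaling genes upstream of these effectors were set beside them, from a list of 28 genes. Of these 24 had a row, and their median per-kb level of 3.66 lay above that of the effectors and 0.38 above the median gene. The receptor chains were all listed, with 4.45 for Ifnar1, 3.05 for Ifnar2, 4.48 for Ifngr1 and 5.11 for Ifngr2. The kinase gene Jak1 had 5.34 and Tyk2 2.89. Stat2 had 3.06 and Irf9, its partner in the factor that binds the response element, 1.99. Irf7, which amplifies interferon production, was far lower with -0.82, at percentile 4.08, and the feedback inhibitor Socs1 had -0.33. No row was found for the interferon genes Ifnb1, Ifna4 and Ifng, nor for Irf8, a factor of hematopoietic cells.

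Genes of class I antigen presentation, many of which interferon also induces, had a higher median, 4.87 over 17 of 18 genes. B2m, the light chain of class I molecules, had 8.24, and the heavy chain genes H2-D1 and H2-K1 had 5.85 and 4.93. The heavy chain genes H2-T23 and H2-Q4 were lower, with 1.93 and 0.70. The list also holds the general protein-folding genes Calr, Pdia3 and Canx, with 9.23, 8.87 and 7.72, which raise its median. Without them the middle of the list lies between Erap1 with 3.04 and Psmb10 with 3.93. That range also holds the signaling median of 3.66. At the low end of that list were the immunoproteasome gene Psmb8 with -0.34 and Nlrc5, the transactivator of class I genes, with -2.45. The peptide transporter genes Tap1 and Tap2 had 1.94 and 0.68.

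**Figure D2:**
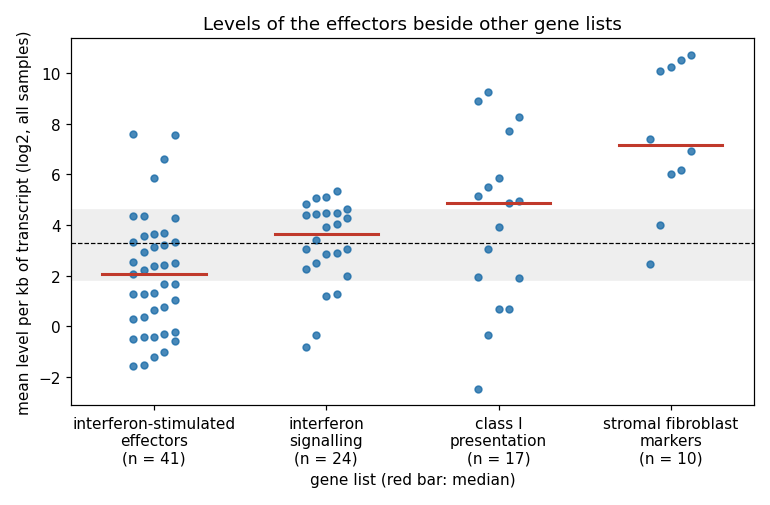
Mean level per kb of transcript (log2, all samples pooled) of each listed gene in 4 lists, with the median of each list as a red bar. The grey band and dashed line are the quartiles and median of all genes. The medians are 2.08 for the effectors, 3.66 for interferon signaling, 4.87 for class I presentation and 7.16 for stromal fibroblast markers. The class I median includes the general protein-folding genes Calr, Pdia3 and Canx, which raise it.

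The label of the cells was checked against marker genes. All 10 stromal fibroblast markers had a row, with per-kb levels from 2.47 for Pdgfra to 10.7 for Col1a1. None of the 10 hematopoietic markers had one, Ptprc and Csf1r among them, and of the endothelial markers Pecam1 had -1.31 and Kdr 0.27. Among epithelial markers Epcam had no row and Krt8 and Krt18 had 0.58 and -0.21, but Cdh1 had 5.88, at percentile 90.7.

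The listed members were then grouped by the response element in their promoter windows. Of the 41, 36 had a window, and 18 held the motif. The median per-kb level was 1.17 for these 18 and 2.46 for the 18 without it, a difference of -1.29. The difference was -2.21 with the motif counted before the start only, for 13 genes with and 23 without it, and -2.07 without division by length. The levels with the motif ran from -1.57 to 7.57, and those without from -0.58 to 4.37. Both the highest and the lowest members thus held it, in Ifitm3 only after the start. Gbp3, Gbp7, Igtp, Isg15, Ifi203, Ifit1 and Trim30a, all with the motif, had mean log2 levels under 1. Without the motif the lowest was 1.06, for Oasl2, so that levels near the low end weigh on the difference. No such difference over all listed genes is given here. Among the 7 genes with a window and no row, 3 held the motif, namely Oas1a, Rsad2 and Ddx60. By class, the motif occurred in 5 of 5 GTPase genes, 5 of 7 sensors and 4 of 6 membrane and secreted proteins. It occurred in 4 of 9 antiviral enzymes, 3 of 9 ubiquitin-like, TRIM and PARP genes and 0 of 7 other induced genes. These counts include genes with the motif only after the start, namely Ifih1, Ddx58, Eif2ak2, Trim21 and Ifitm3. Of the sensors, only Ddx60 and Ifi203 held it before the start. The gamma-activated site, searched as TTCNNNGAA, was found in 10 of the 43 genes (23.3%), against 9.55% of all genes. The promoter windows of the members also held few CpG dinucleotides. For a gene with several windows of 300 bases, the window with the highest count was taken. The median was 5.5 over the 36 listed members, compared with 23 over the listed genes with a window. It was 9 for the 12 members above the median gene and 4.5 for the 24 below it, whereas over all listed genes the medians were 24 and 21.

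**Figure D3:**
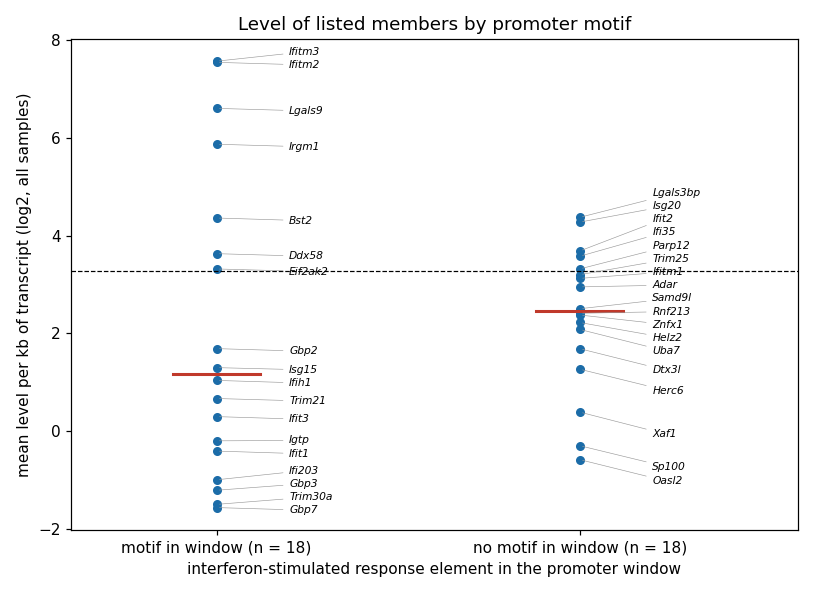
Mean level per kb of transcript (log2, all samples pooled) of the 36 listed members with a promoter window, split by the response element (GAAA, any 2 bases, GAAA, either strand). Red bars are the medians, 1.17 with and 2.46 without the motif, and the dashed line is the median gene. The members with the motif take both ends of the range, from Gbp7 to Ifitm3.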

How the data were processed

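The series holds RNA-seq of 8 samples of the mouse spleen stromal line mSSC-YFP, 4 with DMSO and 4 with BMS493. The study's methods give a stranded mRNA kit, single-end reads, alignment to mm10 and counts per Ensembl gene of reads with a unique position. Whether counting used the strand is not given in the sources used here. The labels' extraction text names instead a kit for arrays. The submitters' processing notes name FastQC, STAR 2.3.0e and limma. The authors deposited 1 table, whose column of log2 values is the mean normalized expression over all samples after scaling by weighted trimmed means of M-values. Its other columns of values (log2 fold change, t, p-value and adjusted p-value of BMS493 against DMSO) are the authors' own comparison and were not used, so the test planned for values of single samples was not run. How genes were filtered is not given in the sources used here. The levels of some genes of the signaling and marker lists are not reported here. Decimal commas were converted, and 19 gene symbols that had become dates were not matched.

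Lengths came from GENCODE M21 on GRCm38, the assembly of mm10, for 98.2% of the 12589 genes: 11765 matched by symbol and 599 through 1 older symbol. The level per kb is the mean log2 level minus log2 of the longest transcript in kb, and a percentile is the share of genes below. Own sequence is the share of runs of 100 bases found in no transcript of another gene, on either strand. The sum of 2 raised to the deposited log2 values was 989369. Depth per sample is unknown.

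The 55 genes, their 6 classes and the other lists were written with earlier results of these data known. All members could be named, besides the genes of the interferon signaling, class I and marker lists. The scripts, in Python 3.11.15 with numpy 2.4.6, pandas 2.3.3 and matplotlib 3.10.9, were tested on simulated data. Alternatives were other lengths, a filter on low levels, families left out, other motifs and other windows.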

Additional observations from a re-analysis of the deposited data

How the results depend on the processing

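No paired analysis was possible because each gene has a single mean over all samples, and for the same reason no replicate could be left out and no normalization changed. The number of members above the median gene was 12 of 41, and 14 of 41 without division by length and 12 of 41 with the other lengths. It was 10 of 32 with the filter on low levels and 9 of 26 with members of copied gene families left out. The order of close genes and levels near the low end of the table cannot be judged without the spread between samples.

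Classes are given in the order antiviral enzymes, sensors, GTPases, ubiquitin-like genes, membrane proteins and other genes, as the class median minus the median gene on the log2 scale. These were -3.34, -1.44, -3.48, -1.60, 2.21 and -1.06, and -1.20 over all members. Without division by length they were -3.91, -0.63, -4.06, -1.05, 1.28 and -0.96, and -1.05 over all members. With the union of exons as length they were -2.91, -1.42, -3.05, -1.55, 2.32 and -0.82, and -1.16 over all. Among genes with a mean log2 level of at least 1 they were -1.45, -0.78, 0.34, -1.36, 2.05 and -1.22, and -0.92 over all. The GTPases turned to higher there because only Gbp2 and Irgm1 passed. With members of copied gene families left out, the antiviral enzymes turned to 0.70, with only Ifit2 and Isg20 left, and no GTPase was left. The others were -0.62 for sensors, -1.40 for ubiquitin-like genes and 1.09 for membrane proteins, with -0.83 over all. This choice of genes did not follow their share of own sequence. Oasl2, Gbp2 and Irgm1 (100% each) and Ifit1 (96.7%) were left out, while Ifit2 (100%) was kept. With the length counted in own sequence only, chosen after seeing the data, the first 4 classes were -3.04, -1.31, -3.40 and -1.51, and all members -1.16.

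Of the 43 members with a window, 21 held the response element (48.8%, against 3.99% of all genes). With the stricter GAAAC, any 1 base, GAAA, 14 did (32.6%, against 0.79%), and 16 before the start only (37.2%, against 3.46%). The gamma-activated site was held by 10 (23.3%, against 9.55%) and by 7 before the start only (16.3%, against 8.13%). With the stricter TTCCNGGAA 3 held it (6.98%, against 1.35%). The level with the element minus that without was -1.29, and -1.61 with the stricter motif, -2.21 before the start only and -2.07 without division by length.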
